A study of Mus musculus with 2 samples.

Results

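The keratin-associated protein (Krtap) genes of hair were examined on arrays of newborn incisor tooth germ, 1 from a wild-type and 1 from a *Sox21* KO sample. They were taken as all genes on the array whose name is Krtap followed by a digit, which gave 51 genes. Of these, 50 are among the 21281 array genes with a RefSeq symbol, which stand for all genes below, and each gene was read from its brightest probe. RNA of the P0 wildtype incisor and of the P0 Sox21KO incisor was read on SurePrint G3 Mouse GE arrays of Agilent, which carry 60-base probes, with 1 array for each genotype. The labels give postnatal day 0 for both samples, whereas the methods of the study give P1. The wild-type mice were C57BL/6J. *Sox21* KO mice carry a knockout of *Sox21*, a SoxB2 transcription factor of the dental epithelium, and the study names the same earlier source for this line and for a GFP knockin at the *Sox21* locus. The strain background of this line and the litters and number of animals behind each RNA are not given in the sources used here. The study dissected whole tooth germ, so that epithelium and mesenchyme are both in the RNA, and fewer cells of a type cannot be told apart from less RNA per cell. With 1 array per genotype no test was possible, and the precision of each difference is limited by the lack of replicate arrays.

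Keratin-associated proteins form the matrix between the keratin filaments of the hair shaft, where they are crosslinked through disulfide bonds. Some are rich in cysteine and others in glycine and tyrosine. Their genes lie in a few dense clusters and are switched on late in hair shaft differentiation, after the hair keratins, and *Hoxc13* and *Foxn1* are known regulators of hair shaft genes. The study asked whether tooth germ without *Sox21* takes on features of skin and hair, and the comparison here covers the genes of the hair matrix.

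Most Krtap genes were not well above background in either genotype, and none of the 12 that were so in both was 2-fold apart. The scanner software marks a spot as well above background when its signal clearly exceeds its local background. By that mark, 14 of 51 Krtap genes were measured on the wild-type array, against 66.2% of all genes, and 15 on the *Sox21* KO array, against 67.0% of all genes. In all, 12 of 51 Krtap genes (23.5%) were well above background on both arrays, against 64.9% of all genes. A further 2 genes were marked in wild-type alone (1.30% of all genes), 3 in *Sox21* KO alone (2.14%) and 34 (66.7%) on neither array (31.7%). A weaker mark of the same software, for a positive and significant signal, was carried by 22 Krtap genes in wild-type (78.5% of all genes), 25 in *Sox21* KO (78.7%) and 20 on both arrays (74.8%), which left 24 of 51 without it on either array. Among the 12 genes well above background on both arrays, 0 reached a 2-fold higher signal in *Sox21* KO (0.739% of all genes so measured) and 0 a 2-fold lower one (0.681%). At 1.5-fold there were also 0 higher (3.19% of all genes) and 0 lower (3.0%). With 12 genes, counts of 0 lie near that background.

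**Figure D1:**
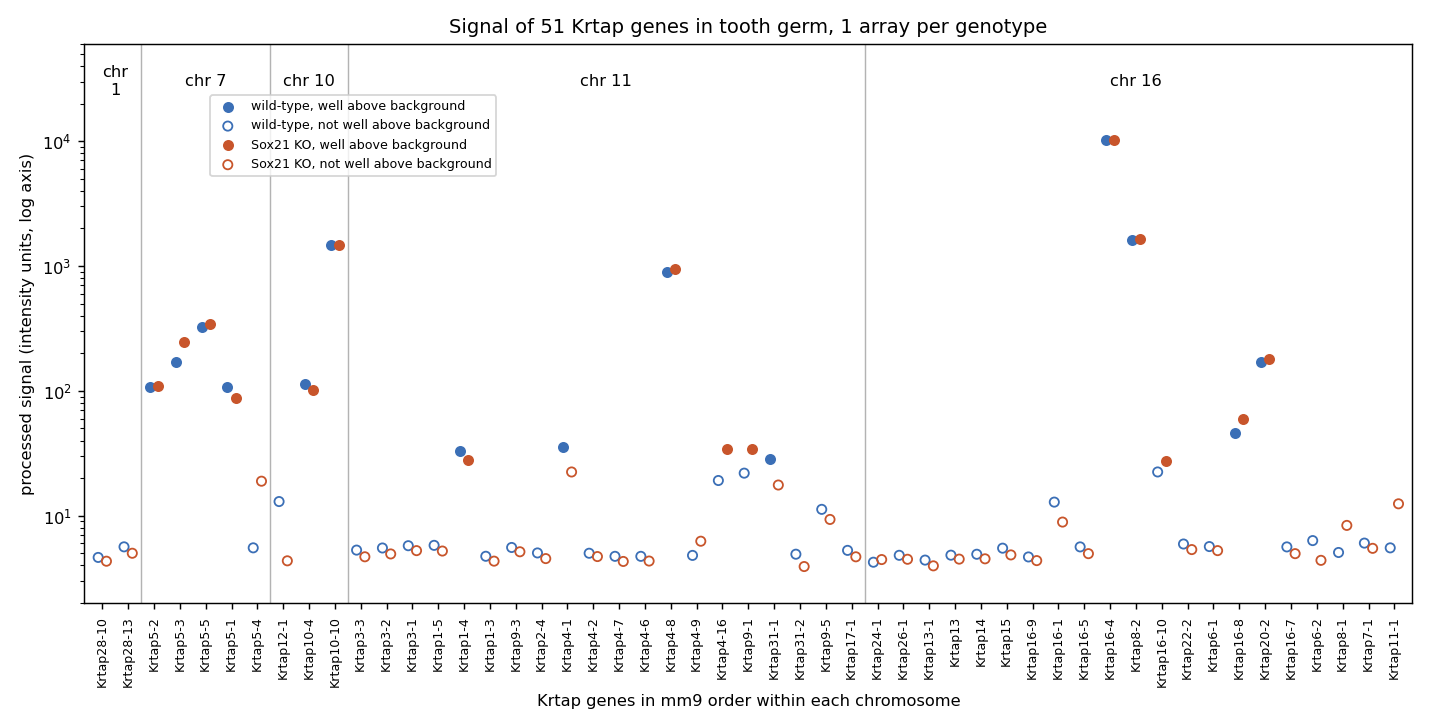
Processed signal (intensity units, log axis) of each of the 51 Krtap genes on the wild-type and the *Sox21* KO array, in mm9 order within each chromosome. Filled points are well above background and open points are not. The 12 genes with a filled pair lie on chromosomes 7, 10, 11 and 16, and the points of each pair lie close together.

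Sequences of some marked and unmarked probes follow, and they do not show which transcript gave a signal. In the lines below, capitals mark codons for glycine or tyrosine in the open reading frame of the probe that holds most of them, and the probes are written in the sense of the transcript. They were read from the scanner files, whose coordinates are of mm9. The *Krtap16-4* probe (*Krtap19-4* in RefSeq, chr16:88885057-88885116, minus strand) and the brightest *Krtap8-2* probe (*Krtap19-5* in RefSeq, chr16:88896479-88896538, minus strand) are shown because both genes were marked on both arrays. The *Krtap16-8* probe (*Krtap6-5* in RefSeq, chr16:89047852-89047911, minus strand) and the brightest *Krtap6-1* probe (chr16:89032140-89032199, plus strand) are shown because the first was marked and the second was not.
Krtap16-4: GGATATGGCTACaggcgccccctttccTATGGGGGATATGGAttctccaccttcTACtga
Krtap8-2: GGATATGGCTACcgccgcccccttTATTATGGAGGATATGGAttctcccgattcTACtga
Krtap16-8: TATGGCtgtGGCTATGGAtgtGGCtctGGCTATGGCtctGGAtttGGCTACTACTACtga
Krtap6-1: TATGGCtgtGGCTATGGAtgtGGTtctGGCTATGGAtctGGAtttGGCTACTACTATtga
All 4 frames end in a stop codon. The *Krtap16-4* and *Krtap8-2* probes were identical at 52 of 60 bases (86.7%), and the *Krtap16-8* and *Krtap6-1* probes at 57 of 60 (95%). The last pair therefore differed in mark while differing at few bases.

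The cysteine-rich kind is shown by the brightest probes of *Krtap5-1* (chr7:149482567-149482626, minus strand), *Krtap5-2* (chr7:149360743-149360802, minus strand) and *Krtap4-8* (chr11:99641467-99641526, minus strand), which were marked on both arrays, and of *Krtap28-13* (chr1:83057928-83057987, plus strand), which was marked on neither. Capitals here mark cysteine codons.
Krtap5-1: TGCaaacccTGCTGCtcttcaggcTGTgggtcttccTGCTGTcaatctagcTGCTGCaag
Krtap5-2: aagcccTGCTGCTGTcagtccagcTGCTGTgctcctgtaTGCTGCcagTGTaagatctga
Krtap4-8: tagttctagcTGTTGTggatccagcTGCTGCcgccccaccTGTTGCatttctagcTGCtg
Krtap28-13: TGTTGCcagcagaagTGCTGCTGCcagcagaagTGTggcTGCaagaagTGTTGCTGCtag
Such repeats recur in several genes. Of the 12 brightest probes marked on both arrays, 7 shared a run of at least 16 identical bases with a probe of another gene, and so did 7 of the other 39. Whether transcripts of those genes add to the Krtap signals was not tested.

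The chromosome 16 cluster holds 21 of the genes, among them the glycine-tyrosine-rich ones, and 4 were marked on both arrays, against 64.9% of all genes. *Krtap16-4* had a processed signal of 10209.6 ± 1021 (scanner error) in wild-type and 10171.5 ± 1017 in *Sox21* KO. Both arrays gave nearly the same value, with a log2 ratio (*Sox21* KO minus wild-type, each signal divided by its array's 75th percentile) of -0.05 ± 0.20. *Krtap8-2* gave 1620 ± 162 in wild-type and 1647 ± 165 in *Sox21* KO, a log2 ratio of -0.02 ± 0.20. Its other probe, at another place in the gene and with no run shared with another gene's probe, was also marked on both arrays, at 902 ± 90.3 and 1082 ± 108, with a log2 ratio of 0.22 ± 0.20. *Krtap8-2* is thus a member of the glycine-tyrosine kind that was read at both of its probes in each genotype. Neither the *Krtap16-4* nor the brightest *Krtap8-2* probe shared a run of 16 or more bases with a probe of another gene. To each other, however, these probes were identical at 52 of 60 bases, with a longest shared run of 15 bases, and the part of shared sequence in their signals was not tested.

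*Krtap20-2* gave 171 ± 17.9 in wild-type and 179 ± 18.5 in *Sox21* KO at its brightest of 4 probes, with a log2 ratio of 0.02 ± 0.21. A second probe gave 79.4 in wild-type and 79.5 in *Sox21* KO, and the other two were marked on neither array. Its brightest probe shared 16 to 23 bases with 5 probes of other array entries, all of them marked on both arrays. *Krtap16-8* gave 46.3 ± 7.41 in wild-type and 59.5 ± 7.90 in *Sox21* KO, a log2 ratio of 0.32 ± 0.30. Its second probe was spotted 10 times, and 0 of those spots were marked on either array, with signals of 4.72 to 5.87 in wild-type and 4.16 to 5.02 in *Sox21* KO. The marked probe shared 17 to 23 bases with 5 probes of other entries, 2 of them marked on both arrays. *Krtap16-10* (*Krtap16-3* in RefSeq) was marked in *Sox21* KO alone, at 22.4 ± 6.25 in wild-type and 27.7 ± 5.28 in *Sox21* KO. Its ratio was 1.20-fold higher in *Sox21* KO, a log2 ratio of 0.26 ± 0.49, within its scanner error. The probe shared 25 bases with that of *Krtap16-1*, which was marked on neither array. The remaining 16 genes of the cluster were marked on neither array.

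The chromosome 11 cluster, which lies among the type I keratin genes and holds cysteine-rich families, had 20 genes. Of these, 2 were marked on both arrays, against 64.9% of all genes. *Krtap4-8* gave 898 ± 89.9 in wild-type and 948 ± 94.9 in *Sox21* KO, a log2 ratio of 0.04 ± 0.20. Its probe shared 21 bases with a probe of *Gm11595* and 16 with one of *Gm10318*, and the *Gm10318* probe gave 3883 in wild-type and 3872 in *Sox21* KO. *Krtap1-4* gave 33.2 ± 5.88 in wild-type and 27.7 ± 5.28 in *Sox21* KO, a log2 ratio of -0.30 ± 0.38, within its scanner error. Its probe shared 16 bases with a probe of another entry, which gave 628 in wild-type and 601 in *Sox21* KO. The other 18 genes were marked on 1 array or on none.

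On chromosome 11, 4 genes crossed the mark on 1 array alone, in both directions, and all lay near the lowest signal that was marked, which was 21.3 in wild-type and 19.5 in *Sox21* KO. For these, a bound sets the normalized signal of the marked array against the larger of the unmarked one and the lowest signal marked on that array. Where the unmarked signal is the larger, as for *Krtap9-1* and *Krtap4-1*, this is the ratio itself. Scanner error is not part of a bound. *Krtap4-16* gave 19.1 ± 5.86 in wild-type and 34.2 ± 6.02 in *Sox21* KO, at least 1.56-fold higher, and its second probe was marked on neither array (5.87 and 5.40). *Krtap9-1* gave 21.9 ± 5.08 and 34.2 ± 5.48, 1.52-fold higher in *Sox21* KO, a log2 ratio of 0.60 ± 0.41. Its probe shared 19 bases with a probe of another entry, which gave 218 in wild-type and 207 in *Sox21* KO. In the opposite direction, *Krtap4-1* gave 35.4 ± 6.0 in wild-type and 22.4 ± 5.04 in *Sox21* KO, 1.62-fold lower, a log2 ratio of -0.70 ± 0.41. *Krtap31-1* gave 28.6 ± 5.49 and 17.6 ± 4.64, at least 1.51-fold lower in *Sox21* KO. These bounds and ratios were all under 2-fold, and the 4 genes split evenly between the genotypes.

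On chromosome 7, 4 of 5 *Krtap5* genes, which encode cysteine-rich members, were marked on both arrays, against 64.9% of all genes. *Krtap5-3* gave 171 ± 17.9 in wild-type and 244 ± 24.9 in *Sox21* KO, a log2 ratio of 0.48 ± 0.21, the largest among the 12 genes and still under 1.5-fold. *Krtap5-1* gave 106 ± 12.2 in wild-type and 87.7 ± 10.3 in *Sox21* KO at its brightest probe, a log2 ratio of -0.32 ± 0.24. Its second probe went the other way, with 40.9 ± 5.96 and 63.1 ± 7.44 and a log2 ratio of 0.58 ± 0.27, so that no direction can be read for this gene. *Krtap5-2* gave 107.3 ± 12.0 in wild-type and 109 ± 11.9 in *Sox21* KO, a log2 ratio of -0.02 ± 0.23, and its second probe was marked on neither array (5.21 and 4.89). The brightest *Krtap5-2* probe shared 17 to 21 bases with 5 probes of other entries, among them AK137741, which gave 4769 in wild-type and 4937 in *Sox21* KO. The brightest *Krtap5-1* probe shared runs of up to 26 bases with 2 probes of other entries and that of *Krtap5-5* 17 bases with 1, whereas that of *Krtap5-3* shared none of at least 16. *Krtap5-5* gave 326 ± 32.9 in wild-type and 343 ± 34.5 in *Sox21* KO, a log2 ratio of 0.03 ± 0.21. Of its other three probes, one was marked in *Sox21* KO alone (21.8 and 36.6), one in wild-type alone (27.3 and 21.4) and one on neither array (5.47 and 6.19). *Krtap5-4*, named after its values were seen, was the member of the cluster marked on neither array, at 5.53 and 18.9.

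Of the 3 chromosome 10 genes, 2 were marked on both arrays, against 64.9% of all genes. *Krtap10-10* gave 1474 ± 148 in wild-type and 1473 ± 147 in *Sox21* KO, a log2 ratio of -0.04 ± 0.20. *Krtap10-4* gave 114 ± 12.5 and 102 ± 11.2, a log2 ratio of -0.21 ± 0.22. Neither probe shared a 16-base run with a probe of another gene, and neither ratio exceeded its scanner error. The 2 *Krtap28* genes on chromosome 1 were marked on neither array.

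**Figure D2:**
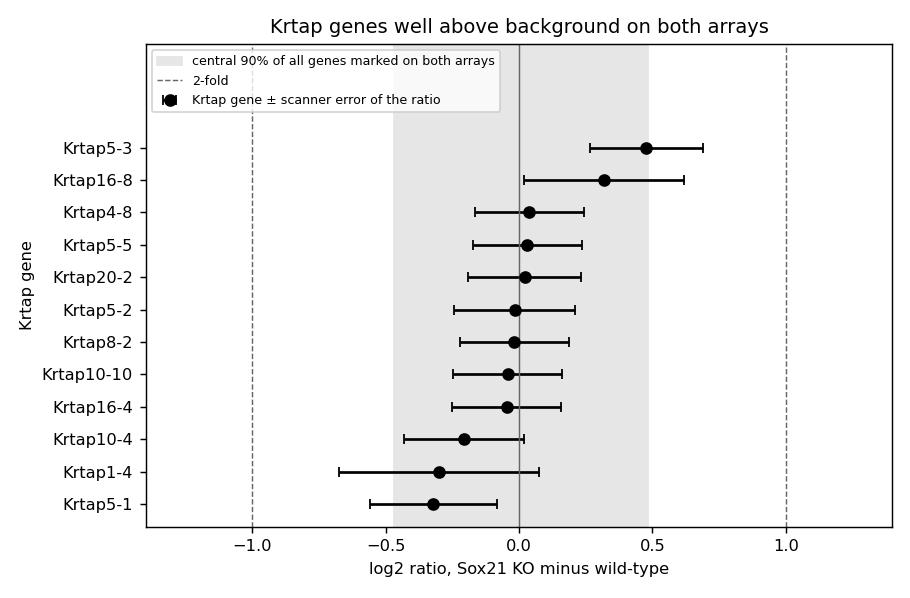
Log2 ratio, *Sox21* KO minus wild-type, of the 12 Krtap genes well above background on both arrays. Bars are the scanner error of the ratio, the grey band holds the central 90% of all genes marked on both arrays (-0.47 to 0.48) and dashed lines mark 2-fold. All 12 points lie between -0.32 and 0.48.

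Taken over the 12 genes marked on both arrays, the log2 ratios ran from -0.32 to 0.48 with a median of -0.02, against a median of 0.01 over the 13803 genes so measured. The median size of the ratio, regardless of sign, was 0.05, against 0.15 over all genes. For 9 of the 12 the ratio was no larger than its scanner error, as for 66.1% of all genes. The exceptions were *Krtap5-1*, *Krtap5-3* and *Krtap16-8*. Of these ratios, 5 were above 0 and 7 below, but under a median shift in place of the percentile shift 9 were above 0, while the median of all genes moved to 0.11, and under normexp background correction 3 were. No direction can be read from ratios within their scanner error. For *Krtap5-3*, the ratio ran from 0.37 to 0.57 over all settings tried.

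The 34 genes marked on neither array lay mostly at the level of the negative control spots. In wild-type their signals ran from 4.24 to 13.0 with a median of 5.40, and in *Sox21* KO from 3.92 to 18.9 with a median of 4.78. The 308 negative control spots had a median of 5.13 and a 95th percentile of 5.99 in wild-type, and of 4.69 and 5.39 in *Sox21* KO. Of the 34 genes, 5 exceeded that percentile in wild-type and 7 in *Sox21* KO. A signal at this level does not show that a gene was silent, only that the array did not measure it. By family, 14 of 23 Krtap families had no member marked on either array. They include *Krtap3*, *Krtap6* as named on the array, *Krtap11* and *Krtap17*, whereas 7 families had a member marked on both arrays. A count of families has no share over all genes to set beside it.

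**Figure D3:**
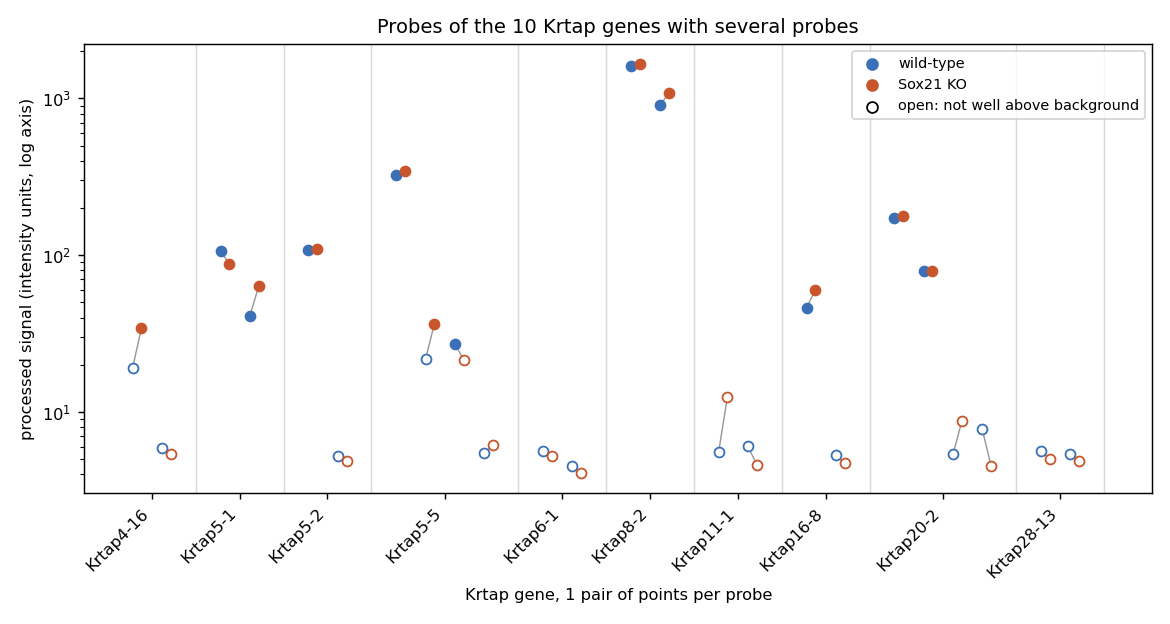
Processed signal (intensity units, log axis) at each probe of the 10 Krtap genes with several probes, with 1 pair of points per probe. Open points are not well above background. *Krtap8-2* and *Krtap5-1* are filled at both probes, whereas *Krtap4-16*, *Krtap5-2*, *Krtap5-5*, *Krtap16-8* and *Krtap20-2* mix filled and open points.

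Of the 51 genes, 10 had more than 1 probe, and in 5 of them (*Krtap4-16*, *Krtap5-2*, *Krtap5-5*, *Krtap16-8* and *Krtap20-2*) the probes disagreed in the number of arrays on which they were marked. Among all 6027 genes with more than 1 probe, 28.8% had probes that disagreed in this way. In 2 Krtap genes (*Krtap5-1* and *Krtap8-2*) every probe was marked on both arrays, and in 3 every probe was marked on neither. The other 41 genes had 1 probe each. Base composition moved with the marks. Among Krtap genes whose brightest probe held at least 50% G and C bases, 11 of 21 (52.4%) were marked on both arrays, against 71.9% of all genes with such a probe. Among those under 50%, 1 of 30 (3.33%) was marked, against 63.6% of all genes. That gene was *Krtap10-10*, and the second *Krtap8-2* probe, at 35% G and C bases, was marked as well. The part of base composition in the Krtap signals was not tested.

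**Figure D4:**
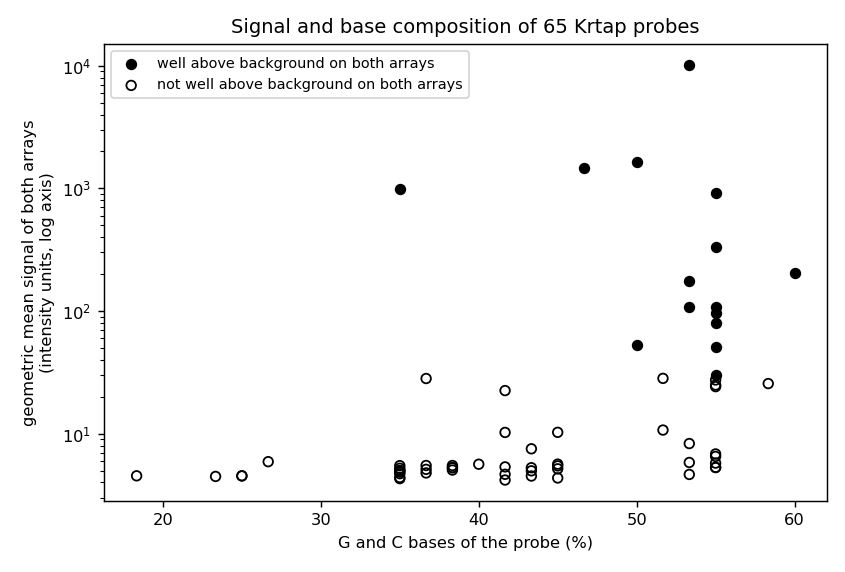
Geometric mean of the wild-type and *Sox21* KO signals (intensity units, log axis) against the share of G and C bases, for each of the 65 Krtap probes. Filled probes were well above background on both arrays. Most filled points lie at 50% or more, and 2 lie under 50%.

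The promoters of these genes shared features that the selection did not use. A RefSeq promoter (GRCm38.p6, 250 bases before the start to 50 after) was found for 45 of the 50 members with a RefSeq symbol. The letters TATAAA stood on either strand in 37 of the 45 (82.2%), against 13.6% of 32851 promoters of all genes. They were in 9 of 11 promoters of genes marked on both arrays and in 24 of 30 of genes marked on neither. The letters ACAAT, the core of known Sox binding sites, stood on either strand in 23 of 45 (51.1%), against 31% of all promoters, in 4 of 11 of those marked on both arrays and in 16 of 30 of those marked on neither. The 2 motifs were counted independently of any overlap, and a match is a description of letters and not a binding site. The 250 bases before the start are shown for *Krtap6-5* (the array's *Krtap16-8*, chr16:89047900-89048149, minus strand) and *Krtap6-1* (chr16:89031449-89031698, plus strand), the pair whose probes were nearly identical and whose marks differed, with TATAAA on the printed strand in capitals.
Krtap6-5: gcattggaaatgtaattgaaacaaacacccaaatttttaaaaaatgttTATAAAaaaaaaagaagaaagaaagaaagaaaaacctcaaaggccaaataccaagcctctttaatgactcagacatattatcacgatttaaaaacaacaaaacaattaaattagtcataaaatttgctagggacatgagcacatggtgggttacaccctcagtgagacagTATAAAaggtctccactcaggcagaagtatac
Krtap6-1: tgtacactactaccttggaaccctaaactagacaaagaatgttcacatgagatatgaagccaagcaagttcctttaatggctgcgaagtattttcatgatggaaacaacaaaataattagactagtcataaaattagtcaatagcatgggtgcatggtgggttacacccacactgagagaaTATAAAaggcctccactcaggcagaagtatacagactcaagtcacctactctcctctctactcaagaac
The TATAAA nearest to the start began 32 bases before it in *Krtap6-5* and 69 in *Krtap6-1*. From that TATAAA on, the *Krtap6-1* letters run nearly alike to the end of the *Krtap6-5* ones and then continue. The 2 distances therefore differ by where RefSeq sets each start.

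Other genes of the hair programme are given beside the shares of all genes, which were 64.9% marked on both arrays and, of those, 0.739% 2-fold higher and 0.681% 2-fold lower. Of 15 hair shaft keratins on the array, 7 (46.7%) were marked on both arrays, 1 was 2-fold higher in *Sox21* KO and 0 were 2-fold lower, and their median log2 ratio was 0.37. That gene was *Krt32*, a cuticle keratin, at 30.4 ± 6.04 in wild-type and 165 ± 17.2 in *Sox21* KO, a log2 ratio of 2.40 ± 0.32. Of 8 inner root sheath keratins, 4 (50%) were marked on both arrays and 0 were 2-fold apart, with a median of -0.20. *Krt71* was marked in wild-type alone, at 44.4 ± 6.28 against 17.1 ± 4.47 in *Sox21* KO, at least 2.34-fold lower.

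Of 11 transcription factors of the hair follicle, 9 (81.8%) were marked on both arrays, 1 was 2-fold higher and 0 were lower, with a median of 0.11. *Foxn1*, the transcription factor missing in nude mice, gave 29.4 ± 5.83 in wild-type and 66.4 ± 8.10 in *Sox21* KO, a log2 ratio of 1.13 ± 0.34. *Hoxc13*, which is required for the hair shaft, was marked on neither array, at 18.3 ± 5.83 and 15.9 ± 5.29. Of 10 other hair structural genes, 8 (80%) were marked on both arrays, 0 were higher and 1 was 2-fold lower, with a median of -0.12. That gene was *Gprc5d*, a receptor of the hair shaft, at 80.7 ± 9.89 in wild-type and 27.2 ± 5.74 in *Sox21* KO, a log2 ratio of -1.61 ± 0.35. Its second probe gave 52.2 ± 7.69 and 54.3 ± 7.37, a log2 ratio of 0.02 ± 0.29, so that its difference rested on 1 probe.

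**Figure D5:**
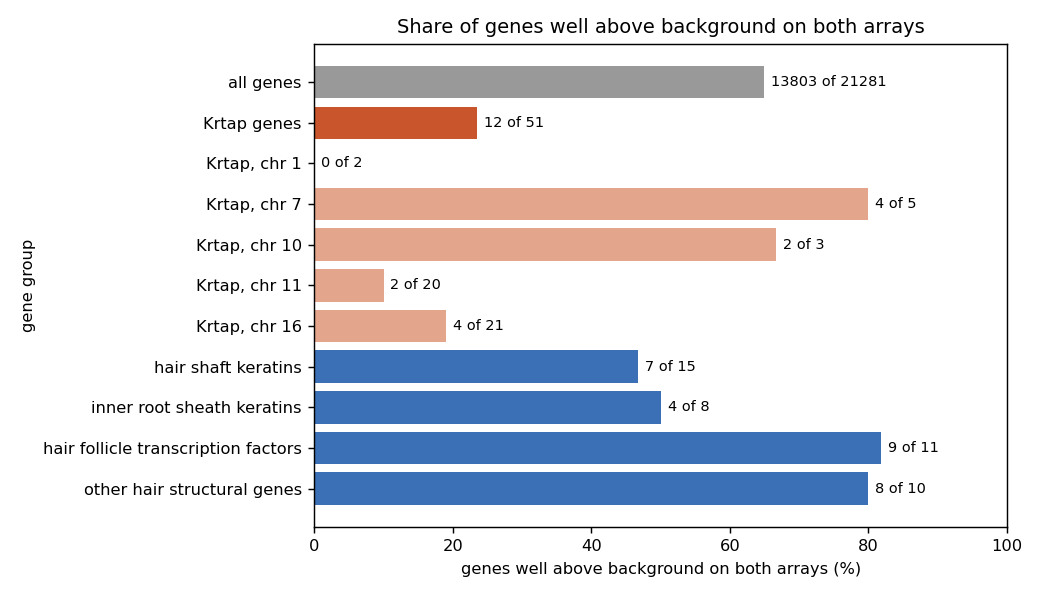
Share (%) of genes well above background on both arrays, for all genes, the Krtap genes, the Krtap genes of each mm9 chromosome and 4 lists of other hair genes. Numbers at the bars give the genes marked of those on the array, with 12 of 51 for the Krtap genes and 13803 of 21281 for all genes.

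The labels and the tissue were checked on the same arrays. *Sox21* gave 1362 ± 136 in wild-type and 659 ± 66.1 in *Sox21* KO at its brighter probe, a log2 ratio of -1.09 ± 0.20, and -1.51 ± 0.22 at the other. It was lower in *Sox21* KO and still well above background at both probes, and whether the probes lie within the deleted part is not given in the sources used here. All 7 ameloblast, 3 odontoblast and 4 epithelial markers were well above background on both arrays, against 64.9% of all genes. Of the ameloblast markers, 2 were at least 2-fold lower in *Sox21* KO (0.681% of all genes), *Klk4* (a log2 ratio of -1.05) and *Amtn* (-1.89), and the others ran from -0.65 for *Enam* to 0.63 for *Odam*, with 2 of the 7 above 0. Of 10 hair shaft markers, 5 were marked on both arrays (64.9% of all genes) and 5 on neither (31.7%). The unmarked ones were *Krt33a*, *Krt33b*, *Krt34*, *Krt35* and the array's *Krt83* (*Krt87* in RefSeq).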

How the data were processed

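Total RNA of 1 wild-type and 1 *Sox21* KO incisor sample was labelled with Cy3 by the authors. Per the file headers, Agilent Feature Extraction 10.7.3.1 removed background within each array, and the authors deposited a processed signal intensity and its error for each spot. The authors deposited, as a second table, ratios of each processed signal over 1 number per array, which matched the 75th percentile over all 62976 spots. The methods name GeneSpring, a percentile shift and a filter on very low signals.

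Here, log2 of the processed signal divided by that percentile (268 in wild-type, 276 in *Sox21* KO) was taken per spot from the deposited intensity. Left out were 267 outlier spots, and spots of a probe were averaged. A probe was marked when most of its spots were. The 51 genes had 65 probes and 74 spots, of which 0 were saturated. RefSeq (GRCm38.p6) symbols were found for 50, and 8 differ from the array's names. The members and lists were chosen with earlier results of these data known. Named are all Krtap genes marked on at least 1 array, those whose probes disagree, hair list genes 2-fold apart or marked on 1 array alone, *Hoxc13*, *Foxn1* and *Sox21*. *Krtap6-1*, *Krtap28-13*, *Krtap5-4*, *Krtap11-1*, *Krtap12-1*, *Gm11595* and *Gm10318* were named after their values were seen. Grouping of the proteins by amino acid content was planned and is not analysed here. Codon shares were read from the probes, with at least 35% glycine or tyrosine codons or over 30% cysteine codons for the probes shown. *Klk4* and *Amtn* were named as markers past 2-fold, and *Enam*, *Odam* and AK137741 after their values were seen. Alternatives covered scaling, background correction (normexp, offset 50), marks, probe choice, membership, outlier spots, the deposited values and the threshold. The steps were tested on simulated data with known changes. No test was run on the arrays. The background correction used limma 3.58.1 in R 4.3.3, and all other steps Python 3.11.15 with pandas 2.3.3 and numpy 2.4.6.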

Additional observations from a re-analysis of the deposited data

How the results depend on the processing

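Across 12 alternative settings, 42 of 50 recomputed counts and medians stayed within 1.5 times the reported count or within the spread of repeat spots (a median SD of 0.09 in the log2 ratio), and 8 moved. The weaker mark, for a positive and significant signal, gave 22 Krtap genes in wild-type in place of 14, 25 in *Sox21* KO in place of 15 and 20 on both arrays in place of 12. Under that mark 1 gene was 2-fold lower, *Krtap12-1* (13.0 in wild-type and 4.35 in *Sox21* KO). With no requirement on background, 2 genes were 2-fold higher, *Krtap5-4* (5.53 and 18.9) and *Krtap11-1* (5.53 and 12.5), and *Krtap12-1* was again the 1 gene that was lower, all of them marked as well above background on neither array. The shares of all genes past 2-fold under the weaker mark or with no requirement on background are not given here. These counts can therefore not be set against a background share. The median log2 ratio was 0.079 under a median shift and -0.17 with no requirement on background, against -0.02 as reported. Among the 12 named genes, 111 of 132 recomputed ratios stayed within the spread of repeat spots and 0 reached 2-fold, the largest being 0.57 for *Krtap5-3*. Settings on the mark, the background requirement, the brightest marked probe, membership and outlier spots left every one of these ratios unchanged. Such settings keep the value of a marked brightest probe as it is, so their part of the 111 is no check on the ratios. The mean over all probes turned *Krtap5-1* from -0.32 to 0.13, since its 2 probes had log2 ratios of -0.32 and 0.58. Signal over background limits the 34 genes marked on neither array, and 1 array per genotype leaves every ratio without a replicate check. No paired analysis was possible because each group holds 1 array.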

Other observations

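One further array entry, AY026312, carries the RefSeq symbol *Krtap19-9b* and was not among the 51 genes, since its array name does not begin with Krtap. Its 2 probes gave 5.63 and 5.68 in wild-type and 4.99 and 5.24 in *Sox21* KO, and neither was well above background on either array. RefSeq symbols place it beside *Krtap16-1* (*Krtap19-2*), *Krtap16-5* (*Krtap19-3*) and *Krtap16-9* (*Krtap19-1*), which were also marked on neither array, and beside *Krtap16-4* (*Krtap19-4*) and *Krtap8-2* (*Krtap19-5*), which were marked on both. Of the *Krtap19* genes by RefSeq symbol, 2 of the 6 on the array were thus marked on both arrays, against 64.9% of all genes. The brightest probes of those 2 genes were identical at 52 of 60 bases, and the part of shared sequence in their signals was not tested.

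Of the 10 Krtap genes whose brightest probe held at least 35% glycine or tyrosine codons, 5 were marked on both arrays, against 64 of 91 such probes of other array entries. Of the 6 with over 30% cysteine codons, 4 were marked on both arrays, against 63 of 73 of other entries. *Krtap5-3* met both limits and is counted in each, and of the 36 genes that met neither, 4 (11.1%) were marked on both arrays, against 54.2% of 36190 other entries.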
